A study of Mus musculus with 6 samples.

Results

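The MS4A genes encode small proteins that cross the cell membrane several times and sit beside receptors on blood and immune cells. The best known are CD20 (Ms4a1), the B cell protein targeted by therapeutic antibodies, and the beta chain of the high-affinity IgE receptor (Ms4a2), which amplifies signals in mast cells and basophils. In myeloid cells, members of the Ms4a4, Ms4a6 and Ms4a7 branches are expressed by monocytes, macrophages and dendritic cells, where they have been tied to innate receptors and to antigen presentation. The 7 genes described here are Ms4a4b, Ms4a4c, Ms4a6b, Ms4a6c, Ms4a6d, Ms4a7 and Ms4a8a. They were taken by name from the 54532 genes of a table of RNA-seq read counts, and they were selected on the counts of Ms4a6d, which were much higher after treatment with DB2313. All 7 passed the filter on low counts, as did 14174 genes in all. Their difference between the groups is therefore given as a description, with its standard error (SE) and with no p-value.

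The RNA came from mouse cells labelled as dendritic cells, 3 control libraries and 3 libraries of cells exposed to DB2313, a small molecule that inhibits PU.1 (encoded by Spi1), the transcription factor that drives myeloid gene expression. Both groups were cultured in the same serum-containing medium. The labels gave no strain, age, dose or time of exposure and did not say whether the libraries came from separate cultures, so p-values measure the spread between libraries, which may be technical. The study named macrophages, not dendritic cells, for its RNA-seq of DB2313 against control, so its wording and the labels differ. The control columns of the table carried a short form usual for bone marrow-derived dendritic cells and the others the name of Spi1, and every direction given here rests on reading the latter as the DB2313 libraries.

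Total counts ranged from 16146743 to 19764677 per library. Of 15 dendritic cell markers, 12 exceeded 10 CPM (counts scaled to the size of each library) in control, among them Itgax, Flt3, Zbtb46 and Cd74, whereas Xcr1, Clec9a and Cd209a did not. Of 14 macrophage markers, 12 also exceeded 10 CPM, and Timd4 had no more than 3 counts in any library. Markers of neutrophils and their progenitors (10 of 10 over 10 CPM), of mast cells and basophils (6 of 9) and of T and NK cells (9 of 14) were present as well, so the culture held RNA of several cell types. B cell markers were nearly absent, with 0 of 7 over 10 CPM, and of 6 plasmacytoid dendritic cell markers 1 exceeded 10 CPM and Klk1 was at 0. In such bulk samples fewer cells of a type and less RNA per cell cannot be told apart.

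The MS4A genes lie in a block of 678.6 kb on chromosome 19 (10962293 to 11640851, GRCm38) that held 19 genes named Ms4a. Within it the members form related groups, and this bears on how well their reads can be told apart. The first 150 coding bases of Ms4a6d, Ms4a6c and Ms4a6b are shown because these 3 neighbours had the highest counts of the members. Capitals mark the bases that differ from Ms4a6d in an alignment of the coding sequences (GENCODE M21).
Ms4a6d: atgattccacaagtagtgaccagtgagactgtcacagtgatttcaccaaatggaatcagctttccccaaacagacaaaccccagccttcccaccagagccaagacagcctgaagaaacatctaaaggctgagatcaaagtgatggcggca
Ms4a6c: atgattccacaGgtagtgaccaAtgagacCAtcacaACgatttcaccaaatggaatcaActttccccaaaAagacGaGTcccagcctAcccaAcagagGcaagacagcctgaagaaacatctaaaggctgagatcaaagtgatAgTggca
Ms4a6b: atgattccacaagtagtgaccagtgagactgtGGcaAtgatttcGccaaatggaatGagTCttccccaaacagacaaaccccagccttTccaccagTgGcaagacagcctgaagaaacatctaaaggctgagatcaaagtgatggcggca

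In this stretch 16 bases of Ms4a6c and 10 of Ms4a6b were not those of Ms4a6d. Over the aligned coding bases, Ms4a6d was identical to Ms4a6b at 81.2% and to Ms4a6c at 79.0%, and Ms4a6b to Ms4a6c at 85.4%. Runs of identical bases were sought between whole transcripts, untranslated parts included. The longest was 81 bp for Ms4a6d and Ms4a6b, 44 bp for Ms4a6d and Ms4a6c, and 96 bp for Ms4a6b and Ms4a6c. The Ms4a4 pair was closer still, and its coding starts are shown with capitals for the bases of Ms4a4b that differ from Ms4a4c.
Ms4a4c: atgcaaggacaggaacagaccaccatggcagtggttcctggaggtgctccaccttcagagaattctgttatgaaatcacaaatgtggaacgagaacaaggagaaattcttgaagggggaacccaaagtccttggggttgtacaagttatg
Ms4a4b: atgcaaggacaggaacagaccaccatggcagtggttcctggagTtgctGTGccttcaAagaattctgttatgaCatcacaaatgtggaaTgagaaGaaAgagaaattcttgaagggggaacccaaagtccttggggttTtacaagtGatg

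Here 11 of the 150 bases differed. Ms4a4b and Ms4a4c were identical at 91.7% of aligned coding bases, and their transcripts shared an identical run of 127 bp. Part of their reads could thus have been assigned to either gene, and their separate values are uncertain. The other pairs of members shared 59.8% to 66.9% of aligned bases and no identical run above 30 bp. Every member had a longest coding transcript of 7 exons, with a coding length from 651 bp (Ms4a6c) to 870 bp (Ms4a8a). Alignments (blastn) of at least 100 bp, with 95% identity or more over their whole length, were sought in transcripts of other genes. They were found for 13 genes with Ms4a6d (up to 114 bp), 8 with Ms4a6c and 1 with Ms4a6b, and for none with the other members. Because the identity is that of the whole alignment, this search did not count the 127 bp run of Ms4a4b and Ms4a4c.

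Ms4a6d (ENSMUSG00000024679, chromosome 19, 11586604 to 11604849, minus strand) is found on macrophages and monocytes, where its protein has been described with Vsig4 as a brake on the inflammasome. Values are given in the order of the replicate numbers. Ms4a6d had 702, 661 and 649 counts in control and 1665, 2553 and 2217 counts with DB2313. This was 43.2, 41.5 and 40.7 CPM against 101, 128 and 133 CPM. The groups were far apart, with the control libraries close together and DB2313 replicate 1 the lowest of the treated libraries. The means were 41.8 ± 1.26 and 121 ± 17.2 CPM (SD, n = 3 each), a 2.89-fold higher level, and the log2 fold change was 1.53 ± 0.10 (SE). Of all genes tested, 0.466% had a higher log2 fold change.

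Ms4a6c (ENSMUSG00000079419, 11469366 to 11482192, plus strand), a close relative known from monocytes, was measured at 24.8, 23.5 and 22.1 CPM in control and at 45.6, 60.03 and 66.5 CPM with DB2313. Its groups did not overlap, and DB2313 replicate 1 was again the lowest treated library. The level was 2.45-fold higher, from 23.5 ± 1.38 to 57.4 ± 10.7 CPM (SD, n = 3 each), with a log2 fold change of 1.29 ± 0.12 (SE). Exons of BE692007, a non-coding gene on the opposite strand, overlap those of Ms4a6c over 990 bp of identical transcript sequence. BE692007 itself had 5.60, 4.02 and 3.45 CPM in control and 9.47, 10.5 and 11.6 CPM with DB2313 (log2 fold change 1.27 ± 0.20, SE; edgeR adjusted p of 7.1e-04). Whether the counting used strand was not given in the sources used here, so reads of the pair cannot be told apart. The same limit holds for Ms4a4c and Ms4a6b, whose exons overlap the opposite-strand genes Gm5692 and Gm19261.

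Ms4a6b (ENSMUSG00000024677, 11516512 to 11531256, plus strand), which is found in T cells and myeloid cells, was measured at 30.9, 30.2 and 37.6 CPM in control and at 60.5, 66.6 and 75.05 CPM with DB2313. The treated libraries all lay above the control libraries, by 2.05-fold on average. The log2 fold change was 1.04 ± 0.11 (SE), below that of Ms4a6d and Ms4a6c. The count of Ms4a6d per count of Ms4a6b within a library was 1.40, 1.37 and 1.08 in control and 1.67, 1.92 and 1.78 with DB2313. That of Ms4a6c per Ms4a6b was 0.805, 0.776 and 0.588 in control and 0.753, 0.901 and 0.886 with DB2313. The first ratio did not overlap between the groups, and the second did. Because the first holds the counts of Ms4a6d, which chose the family, its separation is a description only.

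Ms4a7 (ENSMUSG00000024672, 11321039 to 11336146, minus strand), a gene known from macrophages and microglia, had the lowest CPM, without regard to gene length, of the members that were higher with DB2313. It had 131, 90 and 132 counts in control and 298, 419 and 369 with DB2313, or 8.05, 5.65 and 8.28 CPM against 18.1, 21.01 and 22.2 CPM. The groups did not overlap. The level was 2.79-fold higher and the log2 fold change 1.48 ± 0.16 (SE), within 1 SE of that of Ms4a6d. The coding sequences of Ms4a7 and Ms4a6d were identical at 65.9% of aligned bases.

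Ms4a4c (ENSMUSG00000024675, 11404770 to 11427246, plus strand) and Ms4a4b (ENSMUSG00000056290, 11443553 to 11463549, plus strand) belong to the branch whose protein Ms4a4b has been described beside the costimulatory receptor GITR in T cells. Ms4a4c was measured at 16.4, 15.7 and 20.4 CPM in control and at 30.1, 29.99 and 34.01 CPM with DB2313, a 1.79-fold higher level with a log2 fold change of 0.84 ± 0.12 (SE). Ms4a4b was measured at 14.4, 20.3 and 18.5 CPM in control and at 24.8, 23.7 and 22.9 CPM with DB2313. Neither gene overlapped between the groups, but for Ms4a4b the gap from the highest control to the lowest treated library was small. Its level was 1.34-fold higher and its log2 fold change 0.42 ± 0.13 (SE). The count of Ms4a4c per Ms4a4b was 1.13, 0.775 and 1.10 in control and 1.21, 1.26 and 1.49 with DB2313, without overlap. Of the T and NK cell markers 0 of 13 tested were called in either direction (10.6% of all genes tested). Their sum was 421 to 479 CPM for the control libraries, against 426 to 541 CPM for the treated ones. Il7r was its largest part, with group means of 163 (control) and 152 CPM (DB2313). The tested markers ranged from 0.834-fold (Klrb1c) to 1.29-fold (Eomes), with a median log2 fold change of 0.13. Thy1, Lck, Cd8a, Cd3d, Trac, Cd3g, Cd3e and Cd4 fell from DB2313 replicate 1 to 3, as Ms4a4b did. Il7r, Eomes, Cd2, Cd8b1 and Klrb1c did not have this order. The part of these cells in the value of Ms4a4b was not tested.

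Ms4a8a (ENSMUSG00000024730, 11067471 to 11081102, minus strand), known from gut epithelium and from alternatively activated macrophages, stood apart from the other members. It had 43, 38 and 25 counts in control and 26, 37 and 42 with DB2313, or 2.64, 2.38 and 1.57 CPM against 1.58, 1.86 and 2.52 CPM. The groups overlapped fully. The log2 fold change was -0.15 ± 0.34 (SE), and it turned to 0.0064 without control replicate 1. With 25 to 43 counts per library, a difference of the size of this SE was not detectable.

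**Figure D1:**
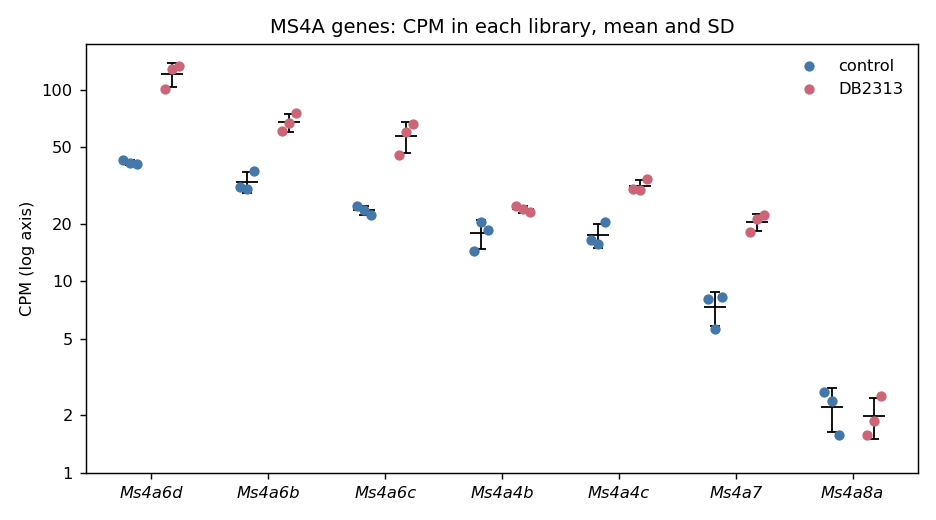
CPM (log axis) of the 7 MS4A genes, ordered by their mean in control, with 1 point per library and the mean and SD of each group of 3 libraries. The DB2313 libraries lie above all control libraries for 6 genes, from Ms4a6d at 101 to 133 CPM against 40.7 to 43.2 CPM down to Ms4a7, whereas those of Ms4a8a overlap.

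In the fit over all genes (edgeR's quasi-likelihood test with Benjamini-Hochberg adjustment), 6 members passed an adjusted p of 0.05 as higher with DB2313 and 0 as lower, where 4.66% of all genes tested were called higher and 5.94% lower. The groups did not overlap in CPM, with DB2313 higher, for the same 6 members and for 12.9% of all genes tested. Because this contrast chose the family, these counts are no evidence about it. The median log2 fold change was 1.04 over the 7 members and 8.2e-04 over all genes tested. The call of Ms4a4b was lost without control replicate 1 (log2 fold change of 0.30), control replicate 3 (0.46), DB2313 replicate 1 (0.39) or DB2313 replicate 2 (0.43), and under the replicate block (0.43).

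The members also differed in how much their replicates spread. In control the coefficient of variation between libraries was lowest for Ms4a6d (3.01%) and Ms4a6c (5.89%) and highest for Ms4a8a (25.5%). Counting error weighs more at low counts, and in control Ms4a6d had 649 to 702 counts and Ms4a8a 25 to 43. Each of these values rests on 3 libraries. With DB2313 it was 14.3% for Ms4a6d and 18.7% for Ms4a6c, and lowest for Ms4a4b (4.09%). In the treated libraries Ms4a6b, Ms4a6c, Ms4a6d, Ms4a7 and Ms4a8a had the same order, with replicate 1 lowest and replicate 3 highest, whereas Ms4a4b had the opposite order. Replicates 1 and 3 were also the most distant pair of treated libraries over all genes, with a chi-square statistic of 19.4 per degree of freedom against 7.99 and 9.41 for the other pairs. Ms4a6d had a log2 fold change of 1.46 when DB2313 replicate 3 was left out and of 1.65 when DB2313 replicate 1 was.

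To compare levels between genes, CPM were divided by the length of each gene model in kb. In control Ms4a6d was the highest at 24.1 ± 0.727 CPM per kb, followed by Ms4a6c (11.4 ± 0.675), Ms4a4c (9.99 ± 1.44), Ms4a6b (7.33 ± 0.907), Ms4a4b (3.37 ± 0.570), Ms4a7 (1.65 ± 0.328) and Ms4a8a (1.23 ± 0.313; SD, n = 3 each). The libraries of Ms4a6c and Ms4a4c overlapped, as did those of Ms4a7 and Ms4a8a, and the other neighbours in this order were separate. With DB2313 the order was Ms4a6d (69.6 ± 9.93 CPM per kb), Ms4a6c (27.99 ± 5.23), Ms4a4c (17.9 ± 1.30), Ms4a6b (15.03 ± 1.62), Ms4a7 (4.59 ± 0.473), Ms4a4b (4.52 ± 0.185) and Ms4a8a (1.11 ± 0.271). Only Ms4a7 and Ms4a4b overlapped there. The gene models of Ms4a4b, Ms4a6b and Ms4a7 are 4453 to 5274 bp long and those of the other members 1735 to 2050 bp, so the length used sets part of this order.

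Summed over the 7 genes, the level was 59.2, 57.5 and 60.5 CPM per kb in control and 121, 145 and 156 CPM per kb with DB2313. Ms4a6d made up 42.0%, 41.6% and 38.8% of this sum in control and 48.2%, 50.8% and 49.2% with DB2313. The share of Ms4a4c was 15.6% to 19.2% in control and 11.8% to 14.2% with DB2313, and that of Ms4a4b 4.62% to 6.70% and 2.78% to 3.90%. The shares of Ms4a6b and Ms4a8a were also lower with DB2313 and that of Ms4a7 higher, without overlap, while that of Ms4a6c overlapped. The sum holds Ms4a6d, on whose counts the family was selected, and a member that rose less than the sum must have a lower share. The shares are therefore a description. The levels of Ms4a6b, Ms4a4c and Ms4a4b were themselves higher with DB2313, and that of Ms4a8a overlapped.

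**Figure D2:**
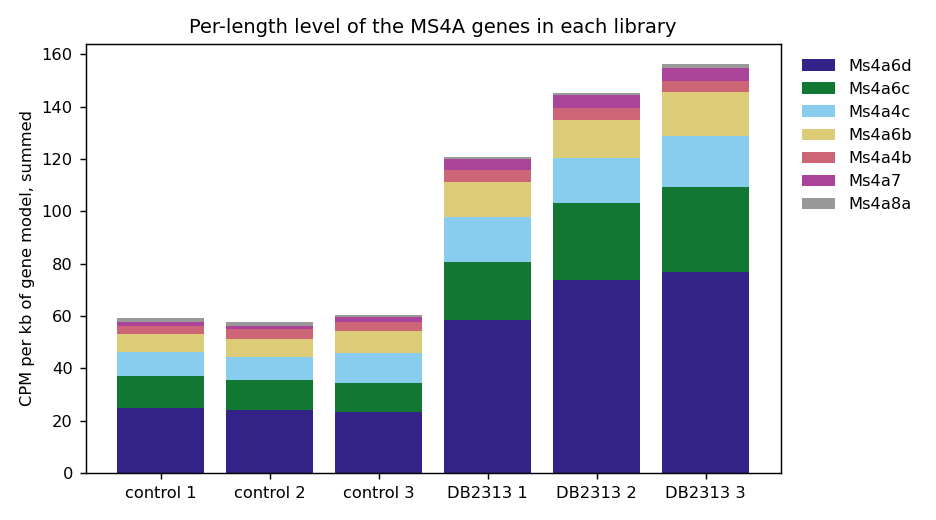
Per-length level (CPM per kb of gene model, axis from 0) of the 7 MS4A genes stacked for each of the 6 libraries. The stacks reach 57.5 to 60.5 CPM per kb in control and 121 to 156 CPM per kb with DB2313, with Ms4a6d as the largest part of each.

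The remaining family was examined next, as the other 12 genes named Ms4a and the related ion channel genes Tmem176a and Tmem176b on chromosome 6. Of these 14 genes, 6 were tested and 1 was called, where 10.6% of all genes were called in either direction, and their median log2 fold change was -0.14. Ms4a2 (11615523 to 11623719), the next gene of the family after Ms4a6d, was measured at 66.7, 71.9 and 70.4 CPM in control and at 66.2, 58.02 and 61.4 CPM with DB2313. All treated libraries lay just below the control libraries (log2 fold change -0.17 ± 0.08, SE; edgeR adjusted p of 0.217). Ms4a6d thus had 0.576 to 0.647 counts per count of Ms4a2 in control and 1.53 to 2.21 with DB2313.

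Ms4a3 (11629496 to 11640851), a gene of granulocyte and monocyte progenitors whose protein binds a regulator of Cdk2, was measured at 32.0, 36.3 and 44.03 CPM in control and at 53.9, 51.5 and 39.5 CPM with DB2313. The groups overlapped, and the test was not passed (0.37 ± 0.13, log2 fold change ± SE; edgeR adjusted p of 0.0839). It was passed without control replicate 3 (0.50, adjusted p of 0.0465), without DB2313 replicate 3 (0.49, adjusted p of 0.0025) and without the filter (0.38, adjusted p of 0.0054). Markers of neutrophils and their progenitors had 3 of 10 genes called higher (4.66% of all genes tested), with a summed level of 4575 to 5160 CPM in control and 4679 to 6142 CPM with DB2313, and their part in the values of Ms4a3 was not tested.

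Ms4a4a (11375523 to 11392790), the receptor partner described on macrophages with dectin-1, was measured at 12.05, 17.6 and 12.5 CPM in control and at 10.6, 12.99 and 13.6 CPM with DB2313. It lies between Ms4a7 and Ms4a4c, and its groups overlapped (-0.18 ± 0.16, log2 fold change ± SE; edgeR adjusted p of 0.575). Without control replicate 2 the log2 fold change was 0.022. Ms4a14 had 4 to 7 counts in control and 13 to 17 with DB2313, did not overlap between the groups and did not pass the test (1.24 ± 0.51, log2 fold change ± SE; edgeR adjusted p of 0.152). It entered the test only through its DB2313 libraries.

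Tmem176a fell from 199 ± 9.40 to 167 ± 13.8 CPM (SD, n = 3 each), by 0.25 ± 0.08 on the log2 scale (SE; edgeR adjusted p of 0.0479), and Tmem176b was measured at 273 ± 13.8 and 255 ± 25.2 CPM (edgeR adjusted p of 0.50). The call of Tmem176a was lost without any 1 of control replicates 1 to 3 (adjusted p of 0.0794, 0.209 and 0.193) or of DB2313 replicates 2 and 3 (0.166 and 0.0691), and with library totals (0.0601), the size factors of DESeq2 (0.0528) or the replicate block (0.110). Ms4a1 had 0 to 2 counts per library, and Ms4a10, Ms4a13 and Ms4a15 had at most 2 counts in a library. Ms4a4d, Ms4a5, Ms4a12 and Ms4a18 had 0 counts in all libraries. Such values lie under the 3 counts that a library with a count of 0 still allows.

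Genes around the block were compared to see whether the difference extended beyond the family. Between the Ms4a genes and up to 500000 bp on either side, 26 other genes were tested, of which 4 were called higher and 3 lower (4.66% and 5.94% of all genes tested), with a median log2 fold change of 0.073. Inside the block, AW112010, a long non-coding RNA of immune cells, rose from 450, 452 and 476 CPM to 744, 720 and 596 CPM, by 0.58 ± 0.08 on the log2 scale (SE; edgeR adjusted p of 3.1e-04). BE692007, described above, was the other. Gm336, Gm6501 and Gm8369, with means of 2.11 CPM or less, were not called.

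On the far side of Ms4a10, Slc15a3, a transporter of histidine and peptides on endosomes, fell from 360 ± 7.36 to 239 ± 16.4 CPM (log2 fold change -0.59 ± 0.07, SE). Next to it Tmem132a (-0.64 ± 0.09) and Tmem109 (-0.49 ± 0.08) fell as well, and the edgeR adjusted p of the 3 genes ranged from 7.2e-05 to 0.0016. The gene models of Slc15a3 (10839727 to 10859362, plus strand) and Tmem132a (10857822 to 10869940, minus strand) overlap. Without known strandedness, their 2 values may not be independent. Prpf19 and Ccdc86, which lie between these 3 genes and the block, were not called. Farther out, Sdhaf2 (0.26 ± 0.08, adjusted p of 0.0472) and, on the other side, Stx3 (0.39 ± 0.08, adjusted p of 0.0038) rose. The call of Sdhaf2 was lost in the fits without control replicate 1, 2 or 3 or DB2313 replicate 2 (adjusted p from 0.0922 to 0.280), and with the replicate block (0.111). Oosp1, the tested gene nearest to Ms4a3, did not pass (-0.46 ± 0.53, log2 fold change ± SE; edgeR adjusted p of 0.670).

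**Figure D3:**
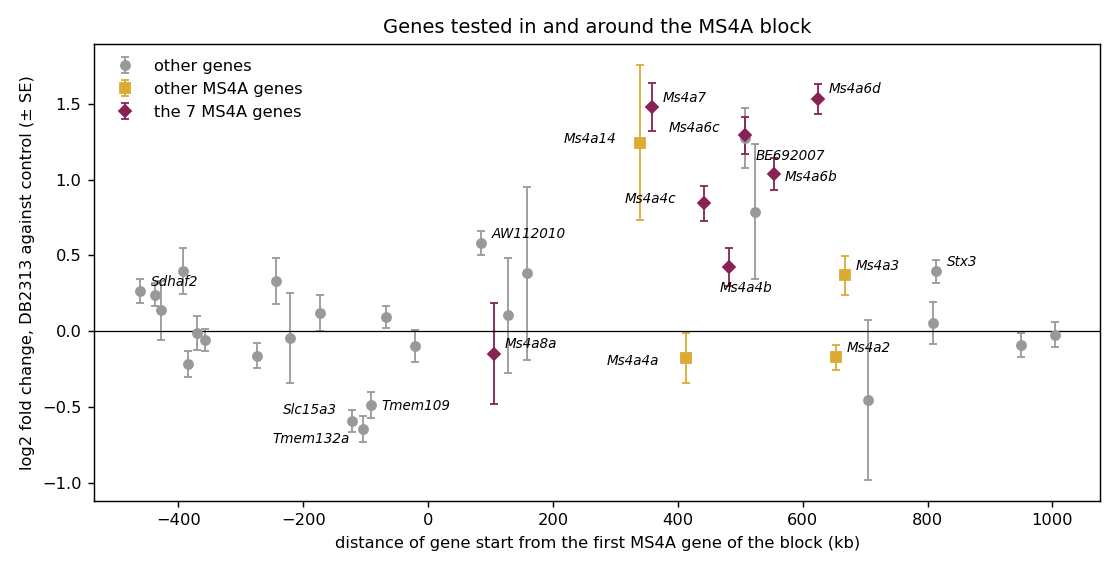
Log2 fold change (DB2313 against control, ± SE) of every gene tested in the block and within 500000 bp on either side. Genes are placed by the distance in kb of their start from the first Ms4a gene of the block. The 7 members, the other Ms4a genes and the other genes of this window have separate symbols. From Ms4a7 to Ms4a6d, 6 members lie between 0.42 and 1.53, with Ms4a4a at -0.18 among them and Ms4a2 at -0.17 after them.

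Promoter sequences were available for 6 of the 7 members (RefSeq, GRCm38.p6), not for Ms4a6d. They are shown for the 2 related pairs, as the 250 bases before the start annotated by RefSeq, 5′ to 3′, because these pairs were higher with DB2313. For Ms4a6b and Ms4a4c this start lies downstream of the first base of the deposited gene model, so the window falls inside that model. In Ms4a6b and Ms4a6c, capitals mark the longest run of bases that both share.
Ms4a6b (chr19:11518309-11518558, plus strand): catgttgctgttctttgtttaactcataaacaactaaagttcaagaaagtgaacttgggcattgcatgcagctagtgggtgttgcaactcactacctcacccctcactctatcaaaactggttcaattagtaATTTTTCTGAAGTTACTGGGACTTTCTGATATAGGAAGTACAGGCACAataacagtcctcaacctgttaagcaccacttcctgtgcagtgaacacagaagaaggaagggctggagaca
Ms4a6c (chr19:11469118-11469367, plus strand): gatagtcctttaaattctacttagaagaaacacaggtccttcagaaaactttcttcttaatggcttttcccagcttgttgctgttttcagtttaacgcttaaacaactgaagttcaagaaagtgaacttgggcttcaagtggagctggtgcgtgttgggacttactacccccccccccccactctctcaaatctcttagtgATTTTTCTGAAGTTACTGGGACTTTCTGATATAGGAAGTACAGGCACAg

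This run was 48 bp long, and 85.1% of 175 aligned bases were identical. In Ms4a4b and Ms4a4c, capitals mark GAGGAA, the core of the site bound by PU.1.
Ms4a4b (chr19:11443308-11443557, plus strand): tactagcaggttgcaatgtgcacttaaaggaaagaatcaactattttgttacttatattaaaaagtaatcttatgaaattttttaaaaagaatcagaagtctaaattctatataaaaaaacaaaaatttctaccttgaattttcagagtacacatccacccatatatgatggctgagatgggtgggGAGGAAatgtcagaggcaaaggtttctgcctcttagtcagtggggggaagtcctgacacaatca
Ms4a4c (chr19:11407411-11407660, plus strand): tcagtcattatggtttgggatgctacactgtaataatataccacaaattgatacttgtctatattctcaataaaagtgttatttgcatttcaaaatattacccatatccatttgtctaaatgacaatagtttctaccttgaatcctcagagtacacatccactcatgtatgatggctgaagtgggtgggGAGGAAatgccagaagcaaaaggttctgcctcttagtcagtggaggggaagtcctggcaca

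The first base of GAGGAA lay 64 bp before the start in Ms4a4b and 61 bp before it in Ms4a4c, on the strand of the gene, and 80.1% of 231 aligned bases of the 2 promoters were identical. GAGGAA, searched on both strands, was found in these 2 members of 6 and in 23.3% of 32817 promoters of the same length. The interferon response core (GAAA, any 2 bases and GAAA, 2.97% of promoters), the Ets-IRF composite (GGAA, any 2 bases and GAAA, 2.30%) and the STAT core TTCNNNGAA (7.01%) were found in none of the 6, nor in the promoters of Ms4a2, Ms4a3 and Ms4a4a. A match or its absence in this window is a description of the letters only.

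A list of 13 genes whose proteins bind or signal with MS4A proteins was also examined. Of the 12 tested, 3 were called higher and 1 lower (10.6% of all genes were called in either direction), with a median log2 fold change of 0.11. Vsig4, described as the partner of Ms4a6d, had 1 count in control replicate 1 and 0 in the other libraries. Nlrp3, the inflammasome sensor, fell from 67.4, 59.1 and 61.5 CPM to 35.2, 39.8 and 46.4 CPM, by 0.63 ± 0.10 on the log2 scale (SE; edgeR adjusted p of 9.6e-04). Tnfrsf18, which encodes GITR, was measured at 37.3, 36.9 and 40.1 CPM in control and at 36.1, 29.2 and 20.1 CPM with DB2313 (-0.42 ± 0.15, log2 fold change ± SE; edgeR adjusted p of 0.0975). It passed without DB2313 replicate 1 (-0.62, adjusted p of 0.0012), without the filter (adjusted p of 0.0047) and with an offset for gene length (0.0128).

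Trem2, a lipid receptor of macrophages that MS4A proteins are known to influence, rose from 113, 104 and 116 CPM to 155, 154 and 143 CPM, by 0.44 ± 0.07 on the log2 scale (SE; edgeR adjusted p of 0.0013). Its adaptor Tyrobp rose from 404 ± 5.31 to 468 ± 16.6 CPM (0.21 ± 0.06, log2 fold change ± SE; edgeR adjusted p of 0.0494). That call was lost with the gene length offset (0.11, adjusted p of 0.348), the replicate block (0.166), and without control replicate 1, 2 or 3 or DB2313 replicate 2 (adjusted p from 0.140 to 0.239). Clec7a (dectin-1) and its adaptor Card9 were not called (-0.07 ± 0.07 and 0.18 ± 0.10, log2 fold change ± SE; edgeR adjusted p of 0.649 and 0.290).

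Of the IgE receptor, Fcer1a rose from 69.4, 69.3 and 72.7 CPM to 99.9, 87.9 and 79.02 CPM (0.34 ± 0.09, log2 fold change ± SE; edgeR adjusted p of 0.0244), while its beta chain Ms4a2, given above, did not. This call was lost in 5 of the 6 fits that left out 1 library, all but that without DB2313 replicate 3, with adjusted p from 0.0512 to 0.110. Fcer1g, the shared gamma chain, was called without DB2313 replicate 3 (0.29, adjusted p of 0.0038) but not with all libraries (0.19 ± 0.09, adjusted p of 0.199). The mast cell and basophil markers had 2 of 7 tested genes called higher (4.66% of all genes tested), Fcer1a among them, with a summed level of 1293 to 1365 CPM in control and 1312 to 1569 CPM with DB2313, and their part in the value of Fcer1a was not tested. The kinases Lyn and Syk, which act below the receptor, and Cdkn3 and Cdk2, the cell cycle genes tied to Ms4a3, were not called (edgeR adjusted p from 0.268 to 0.824).

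**Figure D4:**
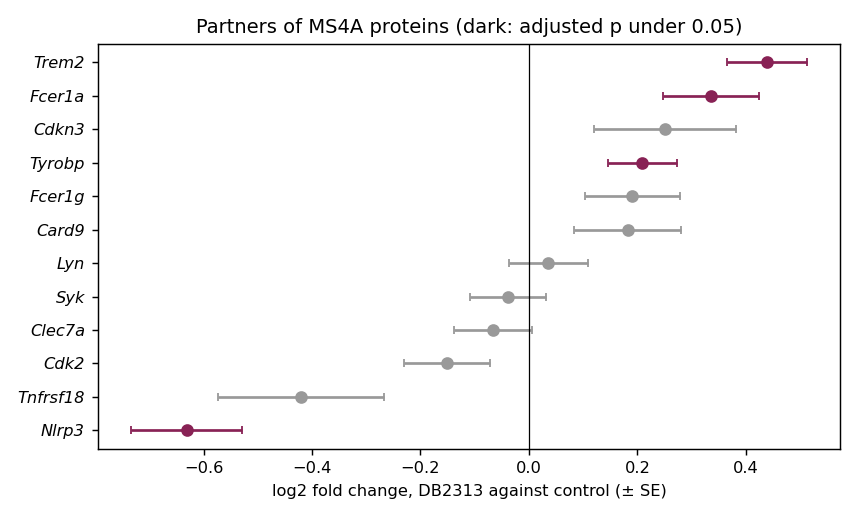
Log2 fold change (DB2313 against control, ± SE) of the 12 tested partner genes, with those past an adjusted p of 0.05 in the darker colour. Trem2, Fcer1a and Tyrobp lie at 0.21 to 0.44 and Nlrp3 at -0.63, and the other 8 genes were not called.

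The genes whose pattern over the 6 libraries was most like that of Ms4a6d were found by the root mean square difference of log2 CPM after centring each gene on its mean, among 10142 protein-coding genes with a mean of at least 5 CPM. They were Rnd3, a small GTPase-like protein (0.082), Clec10a, a galactose-binding lectin of dendritic cells and macrophages (0.099), Lamb3, a laminin chain (0.11), Ms4a6c (0.13) and Kif19a, a kinesin (0.14). Rnd3 was measured at 20.1, 21.7 and 20.3 CPM in control and at 53.4, 58.3 and 63.1 CPM with DB2313, and Clec10a at 21.0, 20.1 and 18.7 CPM and at 54.9, 60.3 and 57.7 CPM. Their levels were 2.81-fold and 2.90-fold higher, against 2.89-fold for Ms4a6d. Ms4a7 came 6th in this order (0.18), Ms4a6b 20th (0.28), Ms4a4c 57th (0.38) and Ms4a4b 427th (0.59). This order follows from the difference between the groups that chose Ms4a6d, and it is given as a description.

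Beside these values, the markers of monocytes, which are known to express several of the members, had a summed level over 8 genes of 4928 to 5395 CPM in control and 5152 to 5872 CPM with DB2313, which overlapped. The macrophage markers had 2 of 13 tested genes called higher, Marco and Fcgr1, and 7 lower (4.66% and 5.94% of all genes tested). Their sums were 10117 to 11488 CPM and 9111 to 9992 CPM, which did not overlap. Most of both sums was Lyz2, at 8285 to 9555 CPM and 7561 to 8253 CPM, which was not called (edgeR adjusted p of 0.218). The dendritic cell markers had 1 of 14 called higher (Clec9a) and 3 lower, against the same shares of all genes, with sums of 12004 to 12270 CPM and 10313 to 12016 CPM. The part of such shifts in the values of the MS4A genes was not tested.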

How the data were processed

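RNA-seq read counts of 6 libraries of cultured mouse cells labelled as dendritic cells were analysed, 3 control and 3 DB2313. The authors deposited raw counts per gene, as whole numbers that had not been normalised, in a single table. The submitters' processing notes named CASAVA 1.8, HISAT2 2.0.5 and featureCounts 1.5.0-p3, whereas the methods of the study named LifeScope for alignment and counting. The genome build, read length and strandedness were not given in the sources used here. The start and end of 98.33% of the 54409 identifiers found in GENCODE M21 were the same as there, and positions are those of GRCm38. Gene lengths in base pairs, also deposited, gave CPM per kb.

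Counts were fitted with edgeR 4.0.16 (R 4.3.3; glmQLFit and glmQLFTest) after TMM scaling and filterByExpr, with the group as the only term. Two-sided p-values were adjusted by Benjamini-Hochberg over 14174 genes, and every adjusted p printed is from this tool. Log2 fold changes are DB2313 against control, and their SE was taken from the F statistic. The script was tested on simulated data. CPM use TMM-scaled library sizes. Pairs of replicates differed by more than sampling noise (chi-square per degree of freedom of at least 5.02). The floor of 3 counts covers counting error only, since reads lacked molecular identifiers.

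The members and all gene lists were chosen with earlier results of these data known. Named were the members, other family genes with at least 10 counts in a library, all partners, neighbours called or bordering the block (within 500000 bp), and the 5 genes most like Ms4a6d. Further genes were named as markers, or with their values known. Alignments of at least 100 bp, with at least 95% identity over the whole alignment, to other transcripts were found by blastn 2.17.0. Alternatives were the size factors of DESeq2 1.42.0, library totals, no filter, protein-coding genes only, DESeq2, limma-voom (limma 3.58.1), a length offset (lowess with span 0.3), the replicate block, both together, and the omission of each library.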

Additional observations from a re-analysis of the deposited data

How the results depend on the processing

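Of the 7 members, Ms4a4c, Ms4a6b, Ms4a6c, Ms4a6d and Ms4a7 were called higher in all 15 alternatives, with log2 fold changes of 0.78 to 0.97, 0.95 to 1.14, 1.17 to 1.43, 1.46 to 1.65 and 1.33 to 1.58. Ms4a4b was called in 10 of 15 (0.30 to 0.54), so that 5 or 6 members were called higher in each, and Ms4a8a was never called. Over all genes, 328 to 1097 were called higher in the alternatives, against 661 of 14174 (4.66%) in the fit described above. Because this contrast chose the family, these counts of members are no evidence about it. Signs turned for Ms4a8a (0.0064 without control replicate 1), Ms4a4a (0.022 without control replicate 2), Lyn (-0.012 without DB2313 replicate 3) and Syk (0.023 with the length offset, 0.023 with this and the replicate block, 0.018 without DB2313 replicate 1), none of which passed the test. Leaving out each library in turn gave -0.35 to 0.0064 for Ms4a8a, -0.28 to 0.022 for Ms4a4a, -0.012 to 0.082 for Lyn and -0.081 to 0.018 for Syk. The cause was not tested.

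When each library was left out in turn, genes called higher ranged from 328 to 1097 against 661 and genes called lower from 411 to 1311 against 842, lowest without DB2313 replicate 2 for both directions and highest without DB2313 replicate 3. Over all genes, 739 of 14580 were called without DB2313 replicate 2 and 2408 of 14527 without DB2313 replicate 3. Partner genes called (12 tested with all libraries) ranged from 2 to 5, with 2 and 5 in these fits. Other family genes called (6 tested with all libraries) ranged from 0 to 1. The count of other family genes was 0 with the size factors of DESeq2, library totals or the replicate block, and 2 without the filter. By CPM without length, the ranks in control were 2 for Ms4a6b, 3 for Ms4a6c, 4 for Ms4a4b and 5 for Ms4a4c, in place of 4, 2, 5 and 3.

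The labels did not say whether replicate numbers pair libraries. The deviations of same-numbered libraries from their group means correlated at 0.0035, -0.024 and -0.12. Differently numbered libraries were not compared, so these values cannot decide it. With the replicate block 1131 genes were called against 1503.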
